A study of Homo sapiens with 6 samples.

Results

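Transcript levels of 10 genes of the actin cytoskeleton were described in CAPAN-2 cells, an established human pancreatic ductal adenocarcinoma line: the transcription factor gene SRF, the actin genes ACTB and ACTG1, the tropomyosin genes TPM1 and TPM4, and ACTN1, FLNA, VCL, TAGLN2 and MYL9. The genes were taken by symbol from a list. The rule uses no measured value, but the list was drawn up with earlier results of these data known. All 10 were found among the 67140 Ensembl identifiers of the gene table, and all 10 passed the low-count filter that left 20786 genes for testing. RNA-seq had been run on 3 libraries labelled with SIRT4 overexpression and on 3 control libraries labelled as lacking it, written ctrl in the titles. The labels give no other difference between the groups. They do not state the vector, the time of overexpression, the number of clones or the growth conditions. They also do not say whether the 3 libraries of a group are separate cultures, so the spread behind each p-value may be technical. In bulk RNA, fewer cells of a type and less RNA per cell cannot be told apart.

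As background, actin filaments are built from globular monomers, and tropomyosins run along the filament and set which other proteins can bind it. Alpha-actinin and filamin cross-link filaments, vinculin ties them to adhesion sites, and myosin II pulls on them. SRF, serum response factor, binds a short DNA element called the CArG box. It works with cofactors of the MRTF family, which free actin monomers hold out of the nucleus, and with ternary complex factors (TCFs), which respond to MAP kinase signalling. Many actin, tropomyosin and adhesion genes are known SRF targets, and so is SRF itself.

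CArG boxes near the gene starts are shown because they are the element that SRF binds and because not all 10 genes have one there. Of the 10 genes, 8 had windows in a RefSeq promoter table of build GRCh38.p14, each running from 250 bases before a gene start to 50 after it; ACTB and MYL9 did not. The full-consensus CArG box was searched, 10 bases that read as a box on both strands. A box was found for 5 of these 8 genes, against 1.6% of the 27305 genes in the table. Capitals mark the box in the sequences below, each written 5′ to 3′ on the strand of its gene.
SRF, chr6:43171199-43171268, plus strand: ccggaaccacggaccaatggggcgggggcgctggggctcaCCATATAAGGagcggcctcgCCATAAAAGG
ACTG1, chr17:81512874-81512903, minus strand: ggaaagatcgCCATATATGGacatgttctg
FLNA, chrX:154374679-154374768, minus strand: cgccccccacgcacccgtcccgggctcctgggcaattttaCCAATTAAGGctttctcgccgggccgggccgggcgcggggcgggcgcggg
TPM4, chr19:16067325-16067414, plus strand: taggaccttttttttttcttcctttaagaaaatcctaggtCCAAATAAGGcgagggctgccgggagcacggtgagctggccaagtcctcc
ACTN1, chr14:68977688-68977777, minus strand: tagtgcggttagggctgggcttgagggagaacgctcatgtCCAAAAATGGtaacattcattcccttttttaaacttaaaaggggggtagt

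The window at the first SRF start held 2 boxes, both within the 30 bases before that start. Of the 35116 windows in the table, 0.0313% held 2 or more boxes at any place. The boxes of ACTG1 and FLNA both began 94 bases before the start. The TPM4 box lay before the first of its 3 listed starts and the ACTN1 box before the third of its 4. No full-consensus box was in the windows of TPM1, VCL or TAGLN2. These matches describe letters in short windows and were not tested for binding.

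Library totals ran from 50945991 to 65156041 units of estimated counts. Levels are given as CPM, units scaled to library size with TMM factors. SIRT4, the gene that the labels name as overexpressed, was at 3.31, 2.80 and 3.60 CPM in SIRT4 libraries, against 2.47, 1.96 and 1.83 CPM in control libraries. Its log2 fold change was 0.63 (SE 0.21), and it did not pass (adjusted p = 0.0752), so the counts do not establish the labelled overexpression. Every adjusted p below comes from edgeR (quasi-likelihood test, Benjamini-Hochberg over all tested genes) unless another tool is named. Summed levels of 9 pancreatic duct markers ran from 4507 to 4651 CPM in SIRT4 and from 2416 to 2536 CPM in control libraries. Most of that sum came from 3 keratins, KRT8 (2062 CPM on average in SIRT4, 862.5 in control libraries), KRT19 (1254 and 683 CPM) and KRT18 (789 and 393 CPM), which rose. Of the other 5 tested markers SOX9 fell by 0.495 on the log2 scale (adjusted p = 0.00127), and 4 did not pass. Of the 8 tested markers 6 had a log2 fold change above 0, and the median was 0.338. The markers below 0 were SOX9 and EPCAM (-0.19), so the list did not move wholly in 1 direction. Summed levels of 9 muscle contractile markers stood between 6.19 and 7.71 CPM in SIRT4 and between 8.01 and 11.8 CPM in control libraries. Those of 9 fibroblast markers stood between 188 and 194 CPM in SIRT4 and between 182.5 and 201 CPM in control libraries. Most of that sum was a single gene, COL1A1 (169.6 CPM on average in SIRT4, 175.1 in control libraries). COL1A2, DCN and FAP were at 0, so the sum does not describe the markers as a class. The part of these marker levels in the results below was not tested.

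Across the 10 genes, 3 rose in SIRT4 libraries and none fell at an adjusted p under 0.05 (edgeR). They were ACTG1, ACTN1 and TAGLN2. Over all tested genes 9.38% were called higher, 7.67% lower and 17.1% in either direction, and with 10 genes a count of 3 is a description. The 10 genes had mean levels from 39.6 to 2282 CPM, while the tested genes include many at low levels. With a stricter filter that kept 15423 genes, 13.1% were called higher and 11.4% lower. At an unadjusted p under 0.05, 5 of the 10 were higher and none lower, against 15.4% and 14.8% of all tested genes. DESeq2 called 3 higher and none lower (13.7% and 10.6% of all genes it tested), and limma-voom likewise 3 and none (9.45% and 7.75%). With the replicate number as a block, 2 of the 10 were called, both higher (6.98% of all genes higher, 5.48% lower). With 1 library left out, 2 to 4 were called higher (6.01% to 7.25% of all genes). The SIRT4 mean was above the control mean for 9 of the 10, against a positive log2 fold change in 47.7% of all tested genes, and TPM4 was the exception. The SIRT4 and control values did not overlap for 5 of the 10, all higher in SIRT4 libraries (SRF, ACTG1, ACTN1, VCL and TAGLN2), where 18.6% of all tested genes stood apart in that direction, 19% in the other and 37.6% in either. The median log2 fold change was 0.18 for the 10 genes and -0.02 for all tested genes.

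**Figure D1:**
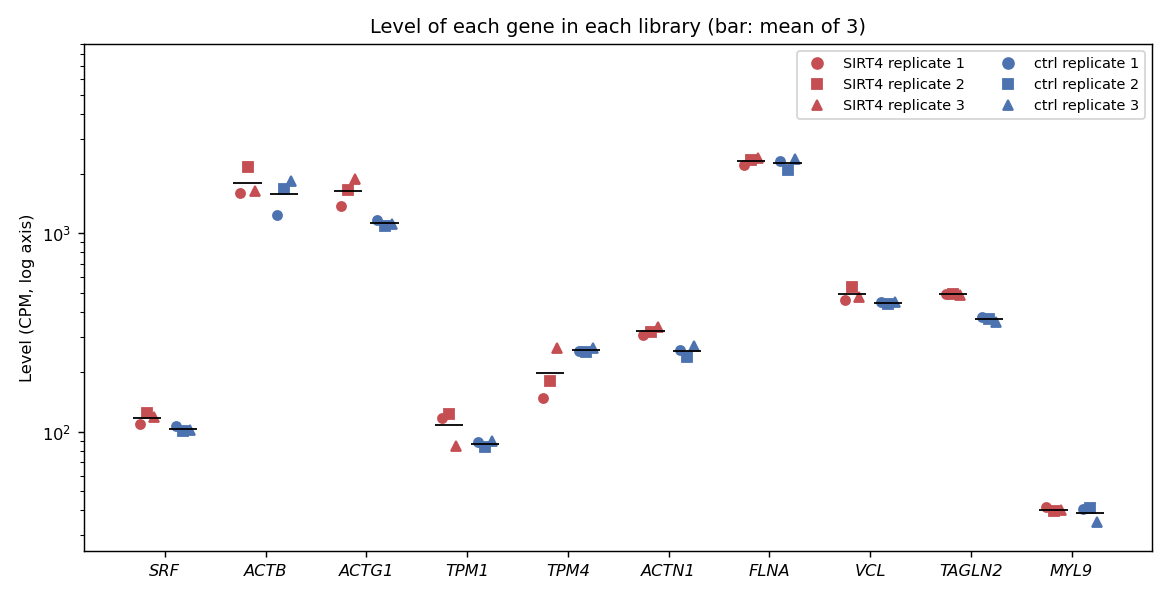
Level of each gene in CPM (log axis) in the 3 SIRT4 libraries (red, left) and the 3 control libraries (blue, right), with marker shape for the replicate number and a bar at the mean of 3. TAGLN2 and ACTG1 stand higher in SIRT4 libraries without overlap, and the SIRT4 values of TPM4 spread from 147 to 263 CPM.

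SRF (ENSG00000112658, GRCh38 chromosome 6, 43171299 to 43181507, plus strand) was slightly above control in each SIRT4 library but did not pass. Its levels were 108.5, 123.4 and 118 CPM in SIRT4 libraries, against 107, 101 and 101 CPM in control libraries. The lowest SIRT4 library and the highest control library were close. On the log2 scale the difference was 0.18 (SE 0.06; adjusted p = 0.0882). Without SIRT4 replicate 1, the lowest of the SIRT4 libraries, it was 0.23 with an adjusted p of 0.0466. Among 12032 genes with a mean of at least 5 CPM, the closest to SRF in log2 CPM over the 6 libraries were TRMT1L (Pearson r 0.993), CTSH (0.988) and POGZ (0.988). These values describe 6 libraries in 2 groups and say nothing about shared control.

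The 2 cytoplasmic actins of non-muscle cells, beta-actin (ACTB) and gamma-actin (ACTG1), were tested gene by gene and then as a share of their pair, since a call for one and not for the other does not show that they differ. ACTG1 (ENSG00000184009, chromosome 17, 81509971 to 81523847, minus strand) was at 1374, 1658 and 1886 CPM in SIRT4 libraries, against 1167, 1092 and 1115 CPM in control libraries. Every SIRT4 library lay above every control library, and the SIRT4 values were spread more widely (SD 257 CPM) than the control values (SD 38.5 CPM, n = 3 each). ACTG1 rose by a log2 fold change of 0.54 (SE 0.12; adjusted p = 0.0273). The call did not hold when a library was removed in 4 of 6 cases: its adjusted p became 0.0817 with SIRT4 replicate 2 removed, and 0.0655, 0.0985 and 0.0884 with control replicates 1, 2 and 3 removed in turn, at log2 fold changes from 0.52 to 0.57. Over all 16 alternatives its adjusted p ran from 2.39e-05 (DESeq2) to 0.131 (edgeR against a 1.2-fold change).

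ACTB (ENSG00000075624, chromosome 7, 5527147 to 5563784, minus strand), which is often used as a reference gene, did not pass. It was at 1601, 2153 and 1637 CPM in SIRT4 libraries, against 1236, 1673 and 1838 CPM in control libraries. The groups overlapped, with the highest value in SIRT4 replicate 2 and the lowest in control replicate 1. Its log2 fold change was 0.18 (SE 0.20; adjusted p = 0.608). The standard deviation of log2 CPM within groups was 0.27, larger than in 91.0% of 8457 genes with a mean of at least 20 CPM, whose median was 0.09. Without control replicate 1 the log2 fold change was 0.03, and without control replicate 3 it was 0.31.

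Actin reads can be shared between genes, so the family was also looked at as a whole. The coding sequences of ACTB and ACTG1 in GENCODE release 29, each 1128 bases with the stop codon, were identical at 91.2% of positions, with a longest identical run of 59 bases. Processed pseudogenes and the POTE genes, which carry an actin-derived segment, held units equal to 0.883%, 0.625% and 0.779% of those of ACTB in SIRT4 libraries, against 2.02%, 1.31% and 1.21% in control libraries. Of these, POTEF had 751, 532 and 534 units in SIRT4 libraries, against 1049, 860 and 1009 units in control libraries. POTEF fell by 0.74 on the log2 scale (SE 0.11; adjusted p = 0.00352); it was singled out after its values were seen. The labels do not say how shared reads were divided.

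The sum of ACTB and ACTG1 was 2975, 3811 and 3523 CPM in SIRT4 libraries, against 2403, 2765 and 2953 CPM in control libraries. All SIRT4 sums lay above all control sums, the closest being SIRT4 replicate 1 and control replicate 3. With their copies added and fitted as 1 row, a choice made after seeing the data, the 2 actins had a log2 fold change of 0.34 (SE 0.12; adjusted p = 0.115), which did not pass. Scaled for transcript length, ACTB made up 55.75%, 58.4% and 48.4% of the pair in SIRT4 libraries, against 53.4%, 62.4% and 64.1% in control libraries. The groups overlapped, with a mean difference of -5.74 percentage points (two-sided exact permutation test, p = 0.3, adjusted over 2 shares 0.6; 0.1 is the smallest p that 3 against 3 libraries allow). With 1 library left out the difference ran from -9.02 points without control replicate 1 to -2.85 points without SIRT4 replicate 3.

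The 2 tropomyosin genes of the list stood in opposite directions in SIRT4 libraries, and neither passed. TPM1 (ENSG00000140416, chromosome 15, 63042632 to 63071915, plus strand), known for many splice forms in muscle and other cells, was at 117.4, 122.9 and 84.2 CPM in SIRT4 libraries, against 88.5, 83.3 and 89.1 CPM in control libraries. SIRT4 replicates 1 and 2 lay above all controls, and SIRT4 replicate 3 lay within their range. TPM1 had a log2 fold change of 0.32 (SE 0.14; adjusted p = 0.191). TPM1-AS, annotated on the opposite strand, held units equal to 2.08% of those of TPM1 over the 6 libraries. Without a stated strand setting, reads from any stretch of exon they share cannot be told apart. Whether their exons overlap was not looked at.

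TPM4 (ENSG00000167460, chromosome 19, 16067021 to 16103005, plus strand), a tropomyosin of non-muscle stress fibres, was at 147, 181 and 263 CPM in SIRT4 libraries, against 254, 251 and 263.5 CPM in control libraries. SIRT4 replicates 1 and 2 lay below all controls, and SIRT4 replicate 3 again lay among them. TPM4 had a log2 fold change of -0.38 (SE 0.22; adjusted p = 0.332). Its standard deviation of log2 CPM within groups, 0.30, was larger than in 92.6% of the 8457 genes with a mean of at least 20 CPM.

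Both values turn on SIRT4 replicate 3. Without that library TPM1 passed with a log2 fold change of 0.48 (adjusted p = 0.00462), and TPM4 passed with -0.64 (adjusted p = 0.00684). Leaving out any of the other 5 libraries in turn gave no call for either gene. SIRT4 replicate 3 also had the lowest ACTB share of the actin pair, 48.4%, and the highest ACTG1 level of the 6 libraries. Its TAGLN2 and MYL9 levels were close to those of the other SIRT4 libraries, and its ACTN1 and FLNA levels were the highest of the group. The cause was not tested.

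The other tropomyosins give the balance of the family. TPM2 was at 312.5, 324 and 325 CPM in SIRT4 libraries, against 236, 240.5 and 243 CPM in control libraries, and it rose by a log2 fold change of 0.42 (SE 0.04; adjusted p = 0.000352). TPM3 had a log2 fold change of 0.16 (SE 0.05; adjusted p = 0.0555) and did not pass. It passed without control replicate 2 (0.0188), with DESeq2 size factors (0.0441) and with the units of its pseudogene copies added (0.0449). Per transcript length, TPM2 made up 45.1%, 44.2% and 44.5% of the 4 tropomyosin genes in SIRT4 libraries, against 38.3%, 38.3% and 38.8% in control libraries. The TPM4 share was 10.2%, 11.8% and 17.2% in SIRT4 libraries, against 19.7%, 19.1% and 20.1% in control libraries. The groups did not overlap for either share, with the TPM4 share lower and the TPM2 share higher in all 3 SIRT4 libraries. The level of TPM4 itself was not lower in SIRT4 replicate 3 (263 CPM, against 251 to 263.5 CPM in control libraries). Shares of a family depend on each other, so these are not separate results. Of the tropomyosins, only the TPM1 share had been planned for testing. The TPM1 share, 18.2%, 18.05% and 12.4% in SIRT4 libraries against 15.5%, 14.3% and 15.3% in control libraries, overlapped (two-sided exact permutation test, p = 0.6, adjusted over 2 shares 0.6). Its mean difference of 1.22 points was 0.216 without SIRT4 replicate 1 and 3.14 without SIRT4 replicate 3.

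**Figure D2:**
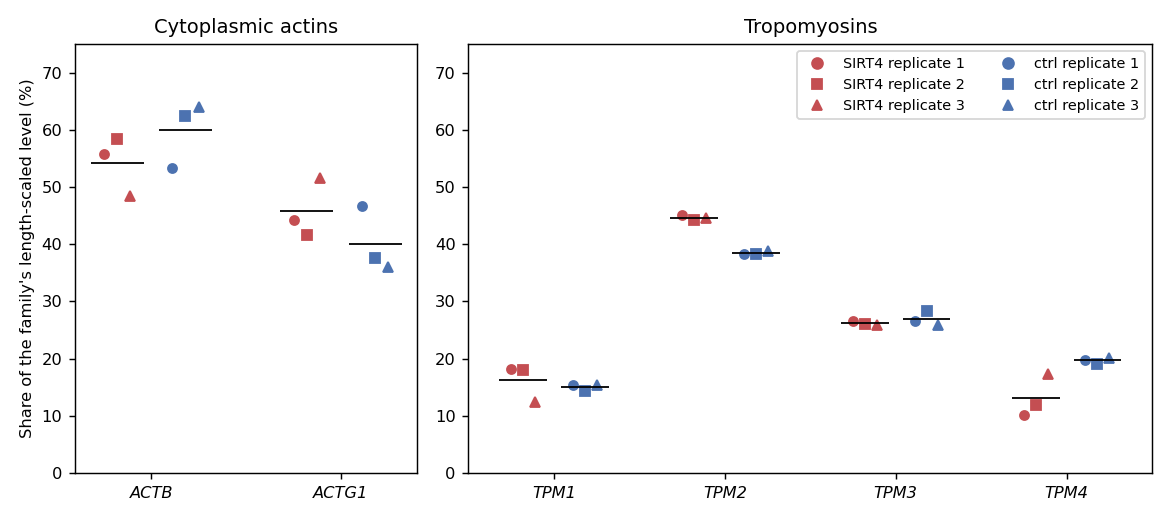
Share of each gene in its family's length-scaled level, in percent, for the cytoplasmic actins (left) and the 4 tropomyosins (right), with SIRT4 libraries in red on the left of each pair, control libraries in blue, and a bar at the mean of 3. The TPM2 share sits near 45% in SIRT4 and 38% in control libraries, while SIRT4 replicate 3 (triangle) stands apart from the other SIRT4 libraries for TPM1, TPM4 and both actins.

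Of the filament cross-linkers, ACTN1 rose and FLNA did not pass. ACTN1 (ENSG00000072110, chromosome 14, 68874143 to 68979440, minus strand) encodes the alpha-actinin of stress fibres and adhesion sites. It was at 306, 319 and 336 CPM in SIRT4 libraries, against 258, 237 and 269 CPM in control libraries. All SIRT4 libraries lay above all control libraries. ACTN1 rose by a log2 fold change of 0.33 (SE 0.06; adjusted p = 0.00688), which with 1 library left out stayed between 0.28 and 0.38 and past the threshold in all 6 cases.

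FLNA (ENSG00000196924, chromosome X, 154348524 to 154374638, minus strand) encodes filamin A, which joins filaments at angles and anchors them to membrane proteins. It was at 2208, 2330 and 2399 CPM in SIRT4 libraries, against 2309, 2087 and 2360 CPM in control libraries. The groups overlapped throughout. For FLNA the log2 fold change was 0.04 (SE 0.05; adjusted p = 0.692), and without control replicate 2 it was -0.015.

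VCL (ENSG00000035403, chromosome 10, 73995193 to 74121363, plus strand) encodes vinculin, the adhesion protein that links talin and alpha-catenin to filaments. It was at 462.5, 537 and 475 CPM in SIRT4 libraries, against 449, 440 and 452 CPM in control libraries. Every SIRT4 library lay above the controls, with SIRT4 replicate 2 the highest. The log2 fold change of 0.14 (SE 0.06; adjusted p = 0.156) did not pass, and it was 0.07 without SIRT4 replicate 2. The locus overlaps AP3M1 on the opposite strand, whose units came to 19.4% of those of VCL over the 6 libraries. AP3M1 had 6064, 4841 and 5638 units in SIRT4 libraries, against 5096, 4583 and 4921 units in control libraries. As for TPM1, reads from any shared stretch of exon cannot be told apart while the strand setting is unknown. Whether exons of VCL and AP3M1 overlap was not looked at.

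TAGLN2 gave the steadiest change of the 10. TAGLN2 (ENSG00000158710, chromosome 1, 159918107 to 159925732, minus strand) encodes transgelin-2, an actin-binding protein of the calponin family found outside muscle. It was at 494, 495 and 488 CPM in SIRT4 libraries, against 376, 371 and 357 CPM in control libraries. The groups were far apart, and the standard deviation of log2 CPM within groups, 0.028, was larger than in only 2.86% of the 8457 genes with a mean of at least 20 CPM. TAGLN2 rose by a log2 fold change of 0.42 (SE 0.04; adjusted p = 0.00027). It passed under all 16 alternatives, with adjusted p-values from 1.325e-10 (DESeq2) to 0.0107 (edgeR against a 1.2-fold change). It was the only one of the 10 called when the test asked for more than a 1.2-fold change (2.91% of all genes higher, 2.51% lower).

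MYL9 (ENSG00000101335, chromosome 20, 36541484 to 36551447, plus strand) encodes a regulatory light chain of myosin II. It was at 41.48, 39.68 and 39.98 CPM in SIRT4 libraries, against 40.6, 41.1 and 34.9 CPM in control libraries. The groups overlapped, and only control replicate 3 stood lower than the rest. For MYL9 the log2 fold change was 0.06 (SE 0.08; adjusted p = 0.709), and -0.013 without control replicate 3.

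**Figure D3:**
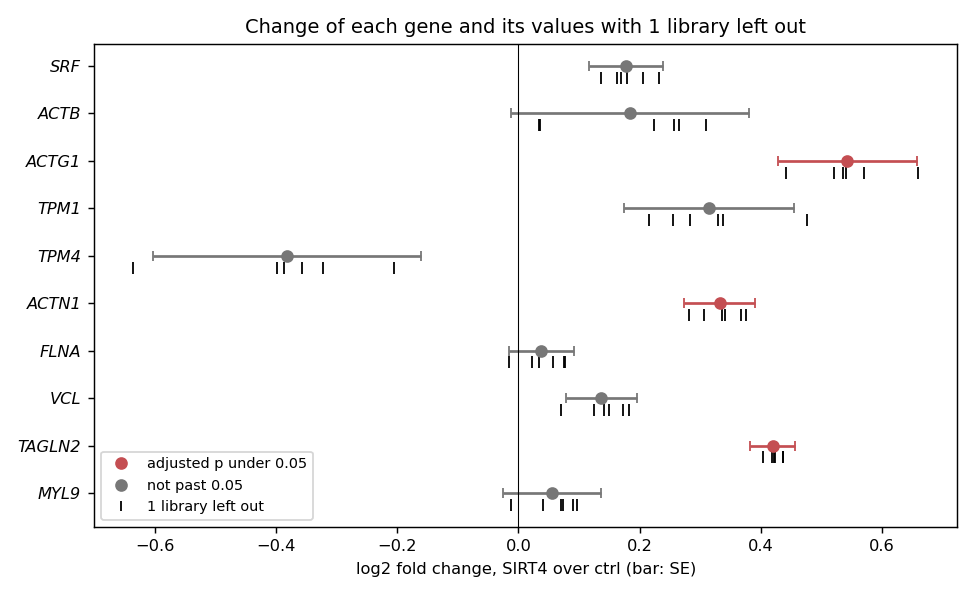
Log2 fold change of each gene, SIRT4 over control, with its SE (dots and bars; red where the adjusted p is under 0.05) and the values with 1 of the 6 libraries left out (black ticks). The ticks of TAGLN2 lie between 0.40 and 0.44, those of TPM4 between -0.64 and -0.21 and those of ACTB between 0.03 and 0.31.

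Levels of different genes were compared per kilobase of transcript, using the median length of each gene's protein-coding transcripts in GENCODE's basic set. The mean of CPM per kilobase over the 6 libraries was 932 for ACTB and 705 for ACTG1, which ranked 44 and 71 among 14504 tested genes with a length. Next came FLNA (276) and TAGLN2 (268), then ACTN1 (94.5), TPM4 (91.6), TPM1 (88.7) and VCL (78.4), and last SRF (26.1) and MYL9 (20.6). The ranges over the 6 libraries overlapped between ACTB and ACTG1, between FLNA and TAGLN2, and between neighbours in the run from ACTN1 to VCL. They did not overlap between ACTG1 and FLNA, TAGLN2 and ACTN1, VCL and SRF, or SRF and MYL9. The muscle actins were nearly absent: ACTA2 was at 1.71, 1.71 and 2.15 CPM in SIRT4 libraries against 2.48, 2.68 and 3.12 CPM in control libraries, with a log2 fold change of -0.57 (SE 0.21; adjusted p = 0.102). ACTC1 was at 0.

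Around the 10 genes, 135 other genes of 13 lists were followed, of which 121 were tested, and 34 rose and 17 fell. These lists were chosen with earlier results of the same data known. Over all tested genes 9.38% were called higher and 7.67% lower, and with the stricter filter 13.1% and 11.4%. With 1 library left out the shares were 6.01% to 7.25% higher and 4.51% to 5.57% lower. Every list count below is a description to be read beside these shares, and no list was tested as a set. Of the SRF cofactors, MRTFA, which free actin monomers bind, rose by a log2 fold change of 0.325 (SE 0.06; adjusted p = 0.0089), at 58.7, 54.9 and 54.5 CPM in SIRT4 libraries against 44.2, 44.3 and 45.7 CPM in control libraries. The ternary complex factor ELK3 fell by 0.24 on the log2 scale (adjusted p = 0.0387), but its adjusted p lay between 0.0588 and 0.133 whichever library was left out. ELK4 (log2 fold change -0.11) did not pass. MRTFB did not pass either and varied widely within groups, at 74.2, 185 and 81.8 CPM in SIRT4 libraries against 60.9, 164 and 144 CPM in control libraries.

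Known targets of the 2 cofactor classes were followed separately. Of 9 TCF-SRF target genes, all tested, 5 fell and 1 rose (median log2 fold change -0.77). EGR1 fell by 2.07 on the log2 scale and MCL1, an anti-apoptotic BCL2 relative, by 1.02, with NR4A1 at -0.77, while IER2 rose by 0.91. FOS (-1.19) and FOSB (-0.70), the others that fell, were picked with their values known, and FOS lost its call without SIRT4 replicate 1 (adjusted p = 0.0674), SIRT4 replicate 2 (0.0755) or control replicate 2 (0.0718). SRF, itself in that list, is described above. Without SIRT4 replicate 1 the higher count was 2, since SRF then passed. EGR3, near 0 CPM, did not pass (-0.23). Several of the genes that fell were scarce. Mean levels in SIRT4 and control libraries were 1.07 and 2.46 CPM for FOS, 6.15 and 9.97 for FOSB, 6.32 and 10.7 for NR4A1, and 6.08 and 25.4 for EGR1. MCL1 (215 and 435 CPM) and IER2 (148 and 79.2 CPM) were more abundant.

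Of 18 MRTF-SRF target genes, 6 rose and 3 fell (median log2 fold change -0.01). With 1 library left out, 4 or 5 rose. Among those cases PDLIM5 kept its call only without SIRT4 replicate 1, and TGFB1I1 only without control replicate 2. Both were picked with their values known. The secreted matricellular genes CCN1 and CCN2, also known as YAP targets, fell by 1.13 and 0.70 on the log2 scale, while TPM2 rose by 0.42 and the myosin heavy chain MYH9 by 0.32. ZYX (0.19; 0.071 to 0.28 with 1 library left out) and LIMA1 (0.41; 0.249 to 0.673) did not pass, and the smooth muscle genes TAGLN (6.55 CPM on average in SIRT4, 7.04 in control libraries) and CNN1 (2.11 and 3.22 CPM) were scarce.

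Genes of myosin II and its control had 6 rises and 1 fall among 14 tested. With 1 library left out the rises numbered 4 or 5. Among those cases MYH14 kept its call only without SIRT4 replicate 1, and MYLK only without control replicate 3. Both were picked with their values known. MYH9 was at 1833, 1909 and 1927 CPM in SIRT4 libraries, against 1524, 1452 and 1562 CPM in control libraries, with no overlap. On the log2 scale MYH10, another non-muscle heavy chain, rose by 0.54 and ROCK2, a kinase, by 0.33. RHOB, a small GTPase of endosomes, fell by 0.71. The light chains MYL12B (0.10) and MYL12A (-0.08), related to MYL9, did not pass.

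Cross-linkers and adhesion genes moved in both directions. Of 8 tested actinins, filamins, transgelins and calponins outside the 10, CNN2 and CNN3 rose by 0.57 and 0.32 on the log2 scale. FLNC, the muscle-type filamin, fell by 0.98, at 99.9, 96.5 and 106 CPM in SIRT4 libraries against 206, 182 and 210 CPM in control libraries. The abundant ACTN4 (0.11) did not pass. Of 16 focal adhesion genes tested, 3 rose and 2 fell. TNS3, a tensin, rose by 0.72 on the log2 scale, talin-1 (TLN1) by 0.25 and ILK by 0.22, while FHL2, a LIM protein, fell by 0.41. ILK lost its call in 4 of the 6 cases with 1 library left out (SIRT4 replicate 2 or 3, control replicate 1 or 2; adjusted p from 0.0553 to 0.0733). PXN, which encodes the adaptor paxillin, fell by 0.14. It was chosen after its value was known, and leaving out any library other than control replicate 2 ended its call (adjusted p from 0.0593 to 0.135) and left 1 fall in the list. PTK2 (0.06) did not pass.

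Of 18 genes of monomer binding and turnover, 4 rose and 2 fell. WDR1, a cofilin partner, and CAPZA1, a capping protein subunit, had rises of 0.32 and 0.36 in log2, and the monomer-binding TMSB10 fell by 0.27. The other fall was of TMSB4X, and CAP2 was the remaining rise; both were picked with their values known, and both lost the call without any single library other than SIRT4 replicate 1 (adjusted p from 0.0667 to 0.113). SSH3, a cofilin phosphatase, rose by 0.87 with an adjusted p of 0.0201, but from 0.0505 to 0.0745 without SIRT4 replicate 2 or 3 or any 1 control library. The list had 2 rises without SIRT4 replicate 2, SIRT4 replicate 3 or control replicate 3, and its falls numbered 3 without SIRT4 replicate 1 and 1 without any other library. Profilin-1 (PFN1, 0.03) and gelsolin (GSN, 0.12) did not pass.

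Nucleation and bundling genes had 10 rises and 1 fall among 21 tested (median log2 fold change 0.18). The rises include EZR and MSN, which the list holds although they are not nucleators or bundlers. With 1 library left out, 8 to 10 rose. CTTN kept its call only without control replicate 2 or 3, and ARPC1A only without SIRT4 replicate 2 or control replicate 1. ACTR3 lost its call without control replicate 1 or 3. MSN and these 3 genes were picked with their values known. The bundler PLS3 rose by 0.51 on the log2 scale, ezrin (EZR) by 0.48, and the Arp2/3 subunits ARPC3 and ARPC5L by 0.46 and 0.49. A fall of 0.24 was seen for WASF2, an activator of Arp2/3 picked after its value was known. The bundler FSCN1 (-0.03) and the Arp2/3 subunit ACTR2 (-0.13) did not pass. Of 5 tropomyosin and tropomodulin genes outside the 10, TPM2 was the one that rose, and TMOD3 (-0.02) did not pass.

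**Figure D4:**
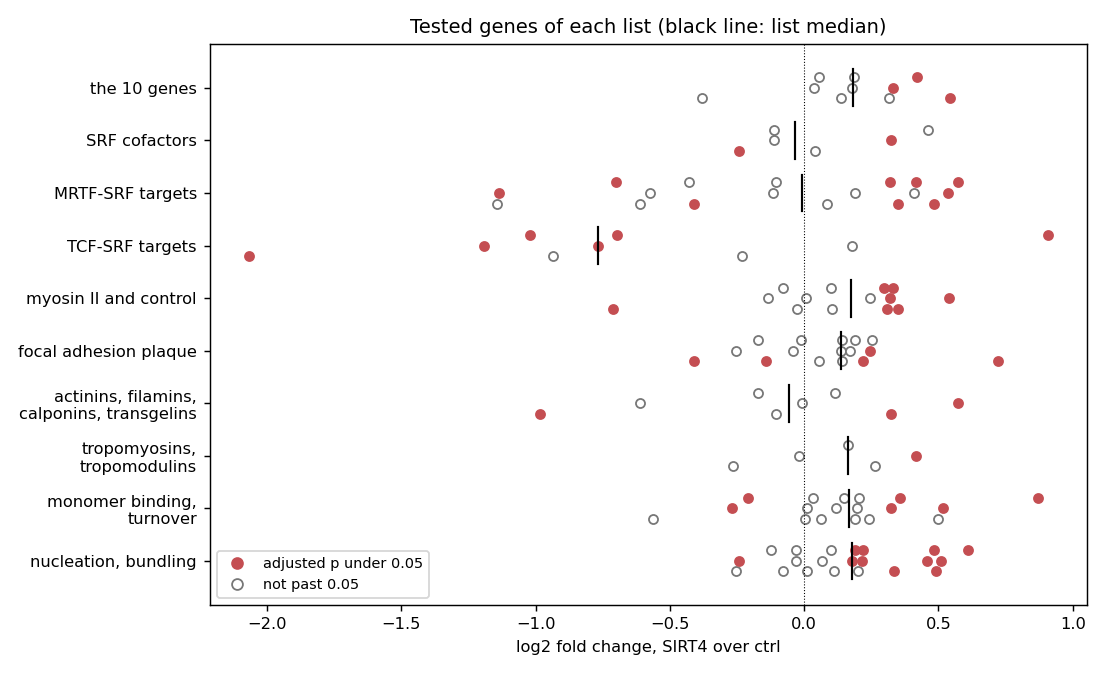
Log2 fold change, SIRT4 over control, of every tested gene in the 10-gene list and in 9 related lists (dots, red where the adjusted p is under 0.05), with a black line at each list's median. The TCF-SRF targets have the lowest median, -0.77, and the 10 genes and the nucleation and bundling genes both have a median of 0.18.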

How the data were processed

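RNA-seq libraries of CAPAN-2 cells, 3 with SIRT4 overexpression and 3 controls, were prepared with a NEBNext Ultra kit from Trizol extracts, per the labels' protocols. The submitters' processing notes list STAR, featureCounts, Subread, DESeq2 and hg38 with no settings; strand handling is not stated. The deposited table gives estimated counts per Ensembl gene as whole numbers. Its column header for SIRT4 replicate 2 ends in the letter b and those of the other libraries in r, which the labels do not explain. Low values pile up at 4 (1274 genes in SIRT4 replicate 1, against 784 at 3), so 1 unit may not be 1 fragment. Symbols matched 60357 identifiers, plus 296 through GENCODE release 29, which also gave coordinates. Genes passing filterByExpr were fitted on all 6 libraries with edgeR 4.0.16 under R 4.3.3, using TMM scaling and glmQLFTest after a robust glmQLFit, with no covariates. P-values were adjusted by Benjamini-Hochberg over all 20786 tested genes, with a threshold of 0.05. SE is the absolute log2 fold change over the square root of F. The procedure was tested on simulated data. Alternatives were other scalings, filters and tests (DESeq2 1.42.0, limma 3.58.1), division by 4, a replicate block and leaving out each library. Named genes were the 10, up to 4 called and 2 abundant uncalled genes per list, and 3 most like SRF. Members and lists were chosen with earlier results of these data known. Values of 2 genes of these lists are not reported here.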

Additional observations from a re-analysis of the deposited data

How the results depend on the processing

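Over the 16 alternatives, TAGLN2 kept its direction and call in each, and ACTN1 in all but the test against a 1.2-fold change (log2 fold change 0.33, adjusted p = 0.301 by edgeR's glmTreat). ACTG1 missed the threshold without a low-count filter (0.55), against 1.2-fold (0.54) and with the replicate number as a block (0.53, adjusted p = 0.0659). Same-numbered libraries correlated at -0.018 to 0.0096 across genes in their deviations from group means. Not every library correlated best with its own number, so no pairing by number was seen. Correlations this close to 0 cannot exclude that libraries were prepared in numbered pairs. The replicate block gave 1450 higher and 1140 lower calls over all genes, against 1950 and 1595 without it, and 2 of the 10 genes. Against 1.2-fold, 1 of the 10 genes was called, with 605 higher and 521 lower over all genes and 14 and 9 in the other lists. Leaving out 1 library gave ranges of 0.14 to 0.23 for SRF, 0.44 to 0.66 for ACTG1, 0.22 to 0.48 for TPM1, -0.64 to -0.21 for TPM4, -0.013 to 0.10 for MYL9 and -0.015 to 0.077 for FLNA. It gave 2 to 4 of the 10 genes higher, 0 to 1 lower, with 1312 to 1570 higher and 978 to 1204 lower over all genes. Uncalled genes changed sign: MRTFB ranged from -0.65 to 0.15, TMOD3 from -0.066 to 0.029, MYL12A from -0.13 to 0.024, PFN1 from -0.009 to 0.064, ACTR2 from -0.33 to 0.12 and EGR3 from -0.55 to 0.22. PFN1 was also -0.002 with library size only. The causes were not tested. With 3 libraries a group, the spread of ACTB, TPM1 and TPM4 limits what could be detected.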

Other observations

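A few other genes of the actin lists showed library-specific levels of the kind seen for TPM4 and ACTB. ACTR2, an Arp2/3 subunit, was at 504, 505.5 and 533 CPM in SIRT4 libraries, against 561, 388 and 733 CPM in control libraries, so the 3 controls spread more widely than the SIRT4 libraries. LIMA1, an actin-bundling LIM protein, was at 129, 98.9 and 149 CPM in SIRT4 libraries, against 72.1, 126 and 85.0 CPM in control libraries. By contrast TPM2 and CNN3 varied little: CNN3 was at 66.2, 67.3 and 66.4 CPM in SIRT4 libraries, against 52.9, 52.7 and 54.2 CPM in control libraries. LMOD1, a leiomodin of smooth muscle, was scarce and fell, at 0.78, 0.97 and 0.61 CPM in SIRT4 libraries, against 1.99, 2.00 and 2.19 CPM in control libraries (adjusted p = 0.0102 in edgeR; log2 fold change -1.39, SE 0.27).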
